A study of Homo sapiens with 18 samples.

Results

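Of the 62703 genes in the count tables, 41 are examined here, the genes of the proteasome subunits and its activators. The list was taken by gene symbol and role, with earlier results of these data known. It holds PSMA1 to PSMA7, PSMB1 to PSMB10, PSMC1 to PSMC6, PSMD1 to PSMD14 and PSME1 to PSME4, and all 41 were found and tested in every comparison.

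The proteasome is the protease complex that removes proteins marked with ubiquitin. Its core is a stack of alpha and beta rings, and 3 of the beta subunits, PSMB5, PSMB6 and PSMB7, cut the substrate. PSMB8, PSMB9 and PSMB10 take their places in the immunoproteasome, while the cap made of PSMC and PSMD proteins recognises and unfolds substrates and the PSME proteins open the core. Myeloma cells secrete large amounts of immunoglobulin and are treated with drugs that block PSMB5.

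The study sequenced total RNA of the myeloma lines AMO1, H929 and LP1 after 48 h of uptake of a gapmer without a carrier. A gapmer is a short antisense oligonucleotide. In each line 3 libraries are labelled gN1E, for the gapmer against the long noncoding RNA NEAT1, and 3 are labelled SCR, for the scrambled control. Replicates carry the letters A, C and D in AMO1, A, B and C in H929, and A, B and D in LP1. The 18 libraries were made with a TruSeq stranded kit and sequenced on a NextSeq 500 with 8 libraries per run. Counts per library run from 53227560 to 66142827 in AMO1 SCR, from 28061606 to 49784737 in AMO1 gN1E, from 34710995 to 54387667 in H929 SCR, from 52856172 to 59302536 in H929 gN1E, from 56542997 to 69937229 in LP1 SCR and from 44091209 to 57247024 in LP1 gN1E.

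The labels and the values contradict each other, so every group below is called by its label only. NEAT1 is the target of the gN1E gapmer, yet its level is high in the libraries labelled gN1E. In AMO1 its counts relative to the library size (CPM, with library sizes scaled by TMM within the line) are 78.8, 81.7 and 94.6 in the libraries labelled SCR and 493, 576 and 539 in those labelled gN1E. In H929 they are 84.3, 75.9 and 83.5 against 581, 482 and 564. In LP1 they are 122, 157 and 174 against 605, 613 and 771. No library labelled SCR reaches any library labelled gN1E of its line, as the figure of values by library shows. The edgeR log2 fold changes of NEAT1, gN1E minus SCR, are 2.66 (adjusted p 5.1e-13) in AMO1, 2.74 (adjusted p 3.11e-14) in H929 and 2.14 (adjusted p 0.0269) in LP1. The LP1 call is lost without SCR B (adjusted p 0.176), gN1E A (0.111), gN1E B (0.0886) or gN1E D (0.0578), with the log2 fold change between 2.00 and 2.25. Against the sample labels, the names written inside the count tables put gN1E where the label says SCR and the reverse, for all 3 lines, and also swap H929 for LP1. Which of the names is right cannot be told from the counts of the proteasome genes.

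**Figure D1:**
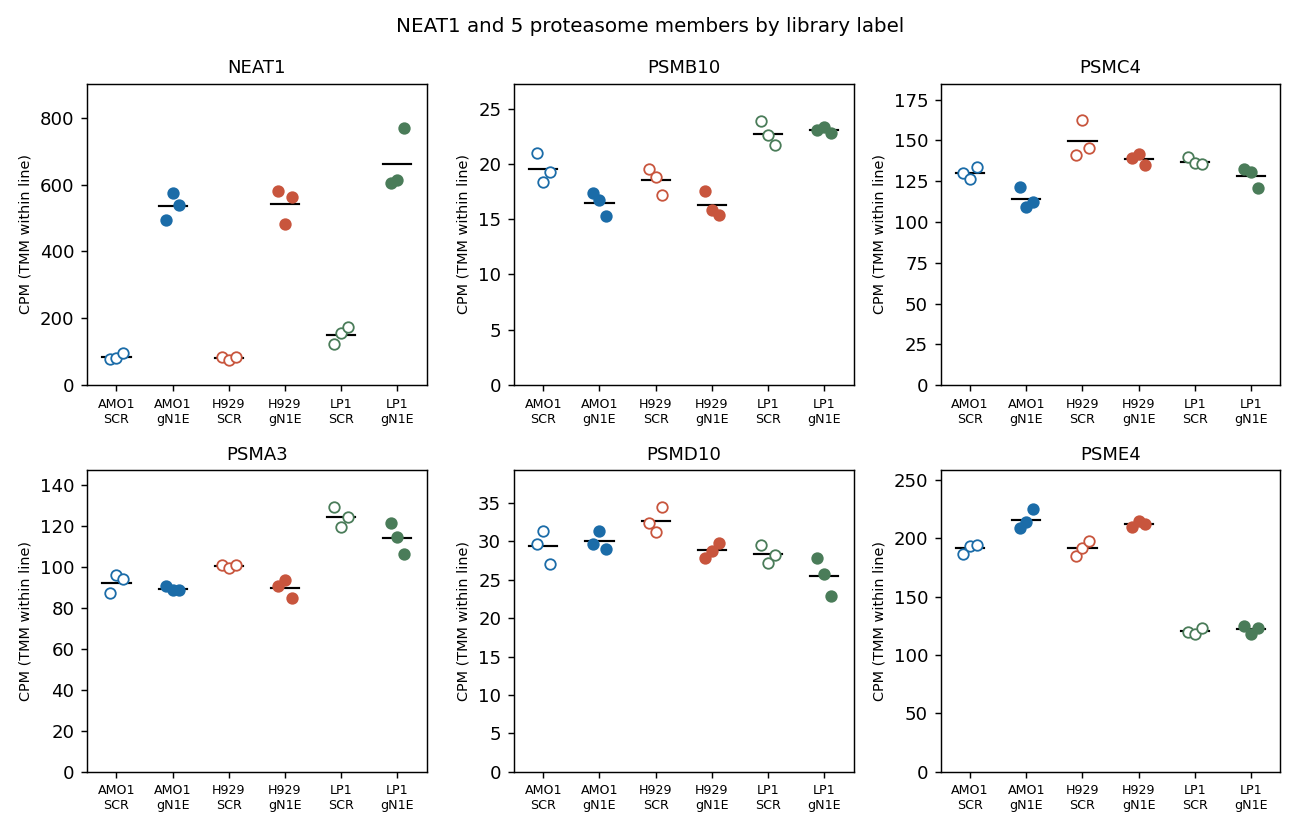
CPM (TMM within the line) of NEAT1, PSMB10, PSMC4, PSMA3, PSMD10 and PSME4 in each of the 18 libraries, open for the label SCR and filled for gN1E, with a bar at the mean. NEAT1 separates the labels in each line, from 75.9 to 174 CPM against 482 to 771 CPM, while the subunits differ little.

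Marker genes give a further contradiction. NCI-H929 and LP-1 are both known to carry the translocation that joins FGFR3 and NSD2 to the heavy chain locus. Mean CPM of FGFR3 is 722 in LP1 gN1E, 1.38 in H929 gN1E and 0.129 in AMO1 gN1E, and NSD2 gives 1664, 258 and 203, so the libraries labelled H929 lack that pattern. All 10 plasma cell markers are present in all 6 groups, among them IRF4 at means of 1446 to 2134 CPM and SDC1 at 1240 to 13960 CPM. MS4A1, CD22, CD3D, CD2, LYZ, CD14 and FCGR3A stay near 0, while CD3E reaches 24.9 CPM, PECAM1 341 CPM and CSF1R 9.39 CPM in their highest single libraries. The labels do not say whether the 3 replicates are separate cultures, so the p-values measure the spread between these samples, which may be technical. The lines and the sequencing runs cannot be told apart, since the labels do not give the run of a library.

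Levels of different members were compared as CPM per kilobase of exon. PSMB4, a beta ring subunit without catalytic activity, is the most abundant with a mean of 183.3 CPM per kilobase over the 18 libraries (158.8 to 230.8). PSMA7 of the alpha ring follows with 99.1 (84.4 to 125.2) and PSMB3 with 90.9 (85.3 to 99.2). At the low end are PSMA6 with 2.88 (1.99 to 4.53), PSMA2 with 1.79 (1.35 to 2.30) and PSMD9, a chaperone of cap assembly, with 1.49 (1.08 to 1.90). The alpha ring subunits PSMA7 and PSMA6 sit in the same complex in equal numbers, and their transcripts are far apart on this scale. The exon length used is 1752 bases for PSMA7 and 6506 for PSMA6, and before that division their means are 173.5 and 18.7 CPM. Pseudogenes with the member's name number 0 for PSMA7 and 4 for PSMA6, and reads that map to several places were not counted. How much of the gap comes from annotation or mapping was not tested. For 8 members the exon length includes bases shared with another gene on the same strand (PSMA2 17.2%, PSMD9 14.9%, PSMA6 14.1%). With unshared length the lowest 3 members are the same. The order is that of the mean over the 3 lines. Within LP1 PSMA2 (1.47) lies below PSMD9 (1.75) and PSME1 (95.7) above PSMB3 (93.4). Within AMO1 PSMB3 (89.56) and PSMA7 (89.53) are level. The 41 members together hold 0.433% of the counts in AMO1 gN1E and 0.446% in AMO1 SCR, 0.487% and 0.506% in H929, and 0.435% and 0.446% in LP1.

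**Figure D2:**
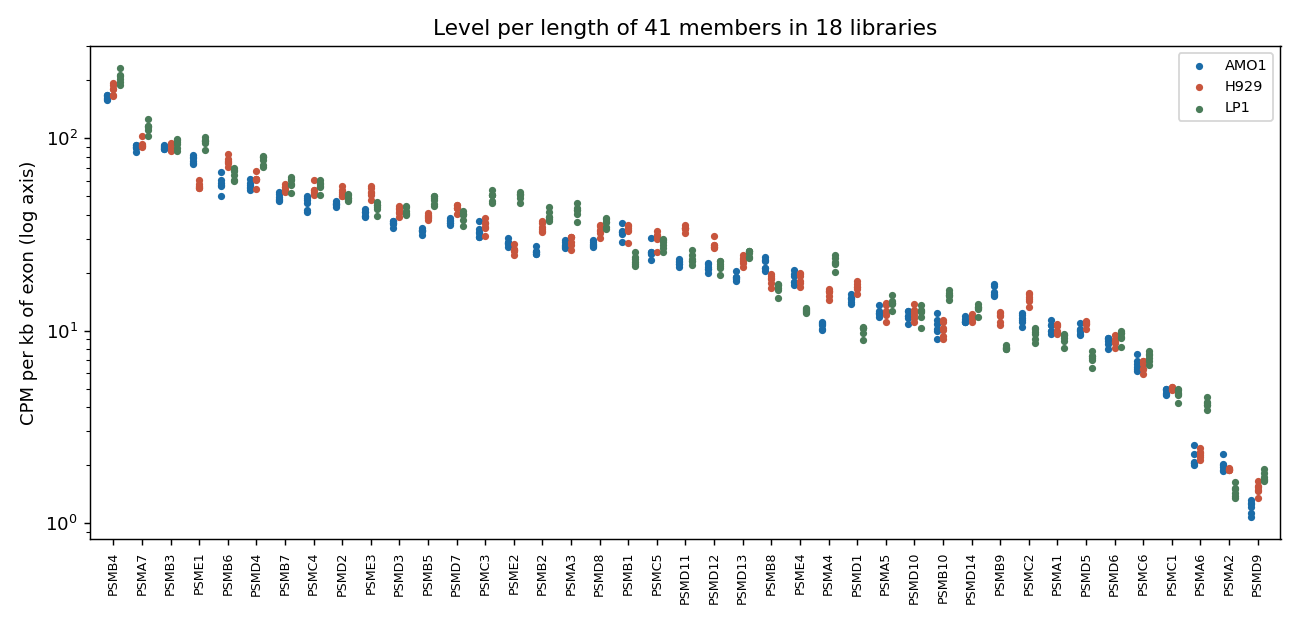
CPM per kilobase of exon (TMM over the 18 libraries, log axis) of the 41 members in the 18 libraries. Members are ordered by mean level, each point is a library and the colour gives the line. PSMB4 lies highest with a mean of 183.3 and PSMD9 lowest with 1.49.

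In AMO1 0 of the 41 members passed an adjusted p of 0.05 in edgeR when libraries labelled gN1E were set against those labelled SCR, beside 2.06% of all 22933 genes tested. DESeq2 and limma-voom also called 0. At an unadjusted p under 0.05 edgeR gave 3 members (PSMB10, PSMC4 and PSME4), beside 12.2% of all genes. The 3 libraries of the labels do not overlap in 4 members, 2 with gN1E above and 2 with gN1E below, beside 17.8% of all genes. The median log2 fold change of the members is -0.01 and that of all genes -0.02, and over all members the lowest end of a 95% interval is -0.422 and the highest 0.283.

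Among the catalytic genes of AMO1, PSMB10 reads 21.0, 18.4 and 19.2 CPM in the libraries labelled SCR and 17.4, 16.8 and 15.3 CPM in those labelled gN1E. Each gN1E value lies below each SCR value, by a small margin at SCR C. Its edgeR log2 fold change is -0.24 (standard error 0.0862, p 0.0108, adjusted p 0.21). PSMB8 and PSMB9, the other immunoproteasome subunits, have -0.08 and -0.01, and the constitutive PSMB5, PSMB6 and PSMB7 have 0.04, -0.10 and 0.02, none of them with an unadjusted p under 0.05.

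Of the 6 ATPases that unfold substrates, 5 have a negative log2 fold change in AMO1, beside 22 of all 41 members. PSMC4 reads 130.2, 126 and 134 CPM in the libraries labelled SCR against 122, 109 and 112 CPM in those labelled gN1E, without overlap. The edgeR log2 fold change of PSMC4 is -0.19 (p 0.00405, adjusted p 0.124). PSMC5 reads 114.5, 113 and 134 against 114, 104 and 112 CPM. The labels overlap in PSMC5, and its log2 fold change of -0.13 has an edgeR adjusted p of 0.444. PSMA6 of the alpha ring, 13.5, 14.1 and 15.5 against 13.9, 13.9 and 17.3 CPM, overlaps as well (log2 fold change 0.06, edgeR adjusted p 0.86).

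PSME4, the activator that caps the core without need of ubiquitin, reads 187, 193 and 194 CPM in the AMO1 libraries labelled SCR and 209, 214 and 225 CPM in those labelled gN1E, all above. Its edgeR log2 fold change is 0.17 (standard error 0.0528, p 0.00374, adjusted p 0.119). PSME1 reads 141, 137 and 136 against 148, 152 and 146 CPM, again apart, with 0.11 (edgeR adjusted p 0.422). PSME2, its partner in the same ring, has -0.01 and PSME3 has 0.04.

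These AMO1 calls depend on the settings. With the replicate letter as a block edgeR called 3 members, PSMB10 (-0.25, adjusted p 0.0485), PSMC4 (-0.19, adjusted p 0.00822) and PSME4 (0.17, adjusted p 0.00922), beside 6.08% of all genes. The scaling by library size only called PSMC4 (edgeR adjusted p 0.0323) beside 2.63% of all genes, and the filter of 1 read called PSMC4 (edgeR adjusted p 0.0461) beside 2.24%. The joint fit of the 18 libraries called PSME4 (edgeR adjusted p 0.0345) beside 2.6%. Without gN1E A the edgeR adjusted p of PSMC4 is 0.0499. Whether the letters mark cultures handled together is not stated, so these AMO1 differences of PSMB10, PSMC4 and PSME4 rest on the model.

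**Figure D3:**
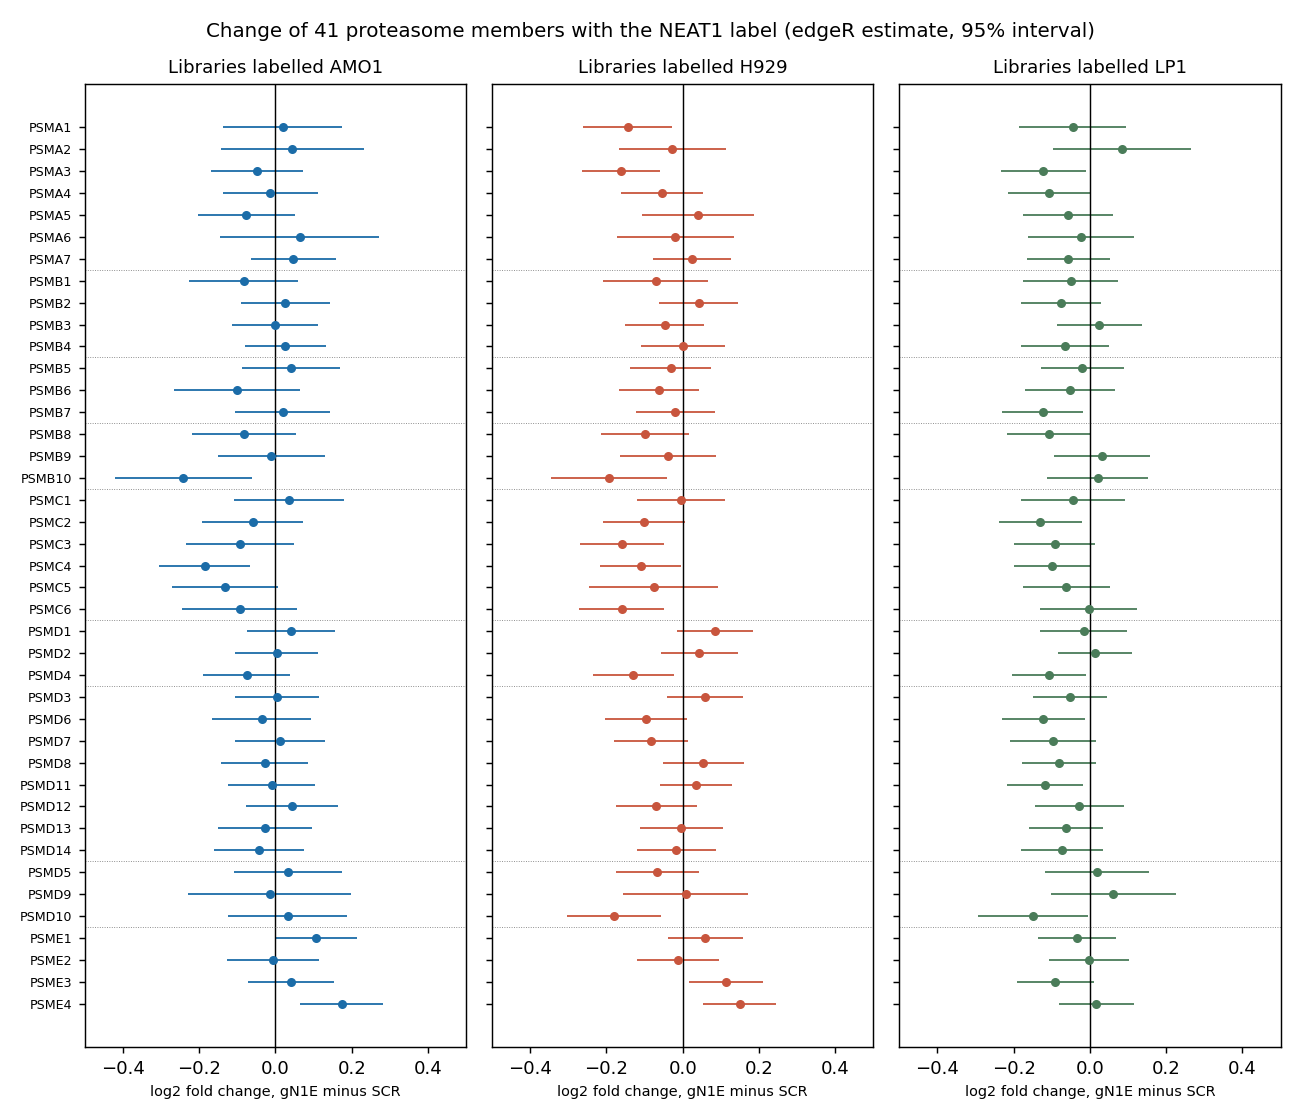
Log2 fold change (libraries labelled gN1E minus SCR) of each of the 41 members with its 95% interval from edgeR, a panel per line, with dotted lines between role groups. The lowest and highest ends of any interval are -0.422 and 0.283 in AMO1, -0.344 and 0.244 in H929 and -0.293 and 0.266 in LP1.

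In H929 edgeR also called 0 of the 41 members, beside 5.47% of all 23499 genes tested, and limma-voom called 0 while DESeq2 called PSMA3 and PSME4, which makes 2, beside 5.6% of all genes. An unadjusted p under 0.05 was reached in edgeR by 10 members, 8 of them with a negative log2 fold change, beside 17.7% of all genes. The labels do not overlap in 12 members, 3 with gN1E above and 9 with gN1E below, beside 22% of all genes. The median log2 fold change of the members is -0.03 and that of all genes -0.01.

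The alpha ring subunit PSMA3 reads 101, 99.6 and 101 CPM in the H929 libraries labelled SCR and 90.8, 93.4 and 84.8 CPM in those labelled gN1E. The SCR libraries are close together and all above the gN1E libraries. PSMA3 has a log2 fold change of -0.16 (edgeR p 0.00304, adjusted p 0.0534). DESeq2 puts PSMA3 just under the threshold.

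PSMB10 of the immunoproteasome reads 19.5, 18.9 and 17.2 CPM against 17.5, 15.8 and 15.4 CPM in H929. Here SCR C falls below gN1E A, so the labels overlap. PSMB10 has a log2 fold change of -0.19 (edgeR p 0.0149, adjusted p 0.147). PSMB8 has -0.10, PSMB9 -0.04, PSMB5 -0.03, PSMB6 -0.06 and PSMB7 -0.02.

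All 6 ATPase genes have a negative log2 fold change in H929, with a median of -0.11, and 3 of them reach an unadjusted p under 0.05 in edgeR. Of all 41 members, 28 are negative there. PSMD10, a chaperone that holds the ATPase PSMC4 during assembly, reads 32.4, 31.2 and 34.5 CPM against 27.8, 28.8 and 29.8 CPM. The labels do not overlap, and the edgeR log2 fold change of PSMD10 is -0.18 (p 0.00557, adjusted p 0.0798). PSMD1, the largest scaffold of the cap, reads 259, 279 and 275 against 289, 298 and 276 CPM, with gN1E C inside the range of the SCR libraries (log2 fold change 0.09, edgeR adjusted p 0.379).

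PSME4 reads 185, 192 and 198 CPM in the H929 libraries labelled SCR and 209.9, 215 and 212 CPM in those labelled gN1E. All gN1E values are above, and the edgeR log2 fold change of PSME4 is 0.15 (p 0.00325, adjusted p 0.0559). PSME3, which forms the activator ring of the nucleus, reads 261, 274 and 282 against 298, 302 and 283 CPM. The highest SCR value of PSME3 lies just under the lowest gN1E value, and its log2 fold change is 0.11 (edgeR p 0.0239, adjusted p 0.189). PSME1 has 0.06 and PSME2 has -0.01.

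The calls of H929 also move with the settings. The scaling by library size only called 5 members in edgeR, beside 5.53% of all genes: PSMA3, PSMD10, PSMC3, PSMC6 and PSMD4, of which the last 3 are named here only for this call and so were chosen after their values were seen. PSME4 alone was called by edgeR with the filter of 1 read (beside 4.3% of all genes), in the joint fit (beside 3.88%) and without SCR C (adjusted p 0.0328). With the CPM filter edgeR called PSMA3 and PSME4 (adjusted p 0.0491), beside 8.14% of all genes. With adjusted p-values of PSMA3 and PSME4 this close to the threshold, edgeR and DESeq2 cannot settle their call at 3 libraries per label.

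In LP1 edgeR called 0 members, beside 1.43% of all 23165 genes tested, and DESeq2 and limma-voom called 0. At an unadjusted p under 0.05 edgeR gave 7 members, all with a negative log2 fold change, beside 13% of all genes. The labels do not overlap in 9 members, all with gN1E below, beside 18.1% of all genes. The median log2 fold change of the members is -0.06 and that of all genes is -0.00. With library size only the medians of the members are -0.04 in AMO1, -0.08 in H929 and -0.03 in LP1, and those of all genes -0.05, -0.06 and 0.03.

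PSMD10 reads 29.5, 27.2 and 28.3 CPM in the LP1 libraries labelled SCR and 27.9, 25.7 and 22.9 CPM in those labelled gN1E. The labels overlap, since gN1E A lies within the SCR range, and the edgeR log2 fold change of PSMD10 is -0.15 (p 0.0429, adjusted p 0.36). The ATPase PSMC2 reads 80.0, 76.5 and 81.7 against 72.3, 76.4 and 69.1 CPM. SCR B and gN1E B nearly coincide in PSMC2, whose log2 fold change is -0.13 (edgeR p 0.0209, adjusted p 0.268).

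PSMB7, the constitutive partner of PSMB10, reads 101, 98.7 and 101 CPM against 94.7, 95.7 and 86.0 CPM in LP1. PSMB7 does not overlap between the labels and has a log2 fold change of -0.12 (edgeR p 0.0242, adjusted p 0.284). PSMB10 itself reads 23.9, 22.6 and 21.7 against 23.0, 23.4 and 22.8 CPM, fully overlapping, with a log2 fold change of 0.02. PSMB8 has -0.11, PSMB9 0.03, PSMB5 -0.02 and PSMB6 -0.05. The highest log2 fold changes in LP1 belong to PSMA2 (0.08, edgeR adjusted p 0.739), PSMD9 (0.06, edgeR adjusted p 0.8) and PSMB9 (edgeR adjusted p 0.879).

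All 8 genes of the cap lid, which removes ubiquitin, have a negative log2 fold change in LP1, with a median of -0.08. Of all 41 members, 33 are negative there. PSME4 reads 120.2, 118 and 123 against 125, 118 and 123 CPM, with a log2 fold change of 0.02, where AMO1 and H929 have 0.17 and 0.15. PSME1, PSME2 and PSME3 have -0.03, -0.00 and -0.09. No setting called a member in LP1. An adjusted p under 0.1 together with a 1.5-fold change was reached by 0 members in each of the 3 lines in edgeR, beside 176, 369 and 102 of all genes in AMO1, H929 and LP1.

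A call in a line and none in another would not be a difference, so the responses were compared as an interaction. In edgeR the response of AMO1 minus that of LP1 differed in 0 of the 41 members, beside 0.741% of all 26436 genes tested. The response of AMO1 minus that of H929 differed in 0 members, beside 0% of all genes, and that of H929 minus LP1 in 0 members, beside 0.874%. DESeq2 and limma-voom called 0 members in each of the 3 interactions. At an unadjusted p under 0.05 there were 5, 0 and 5 members in edgeR, in the order AMO1 minus LP1, AMO1 minus H929 and H929 minus LP1, beside 2820, 1771 and 2664 of all 26436 genes. PSME4 has an interaction of 0.18 between AMO1 and LP1 (edgeR p 0.0114, adjusted p 0.277), PSMB10 has -0.24 (edgeR p 0.0276, adjusted p 0.379), and PSME3 has 0.24 between H929 and LP1 (edgeR p 0.00203, adjusted p 0.126). The lines therefore cannot be said to differ in the response of any member.

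Across the 41 members the log2 fold changes of AMO1 and H929 have a Pearson correlation of 0.611, those of AMO1 and LP1 0.194 and those of H929 and LP1 0.242. The lines share no libraries, but the points share the exon model and subunits of the same complex, and no test was made of them. The log2 fold change is negative in all 3 lines for 15 members, with PSMB6, PSMB8, PSMC2 and PSMC4 among them. PSME2 is also among them, and its -0.00 in LP1 changes sign with library size only. By line, 22 (AMO1), 28 (H929) and 33 (LP1) of the 41 members are negative. Of all genes tested, 12272 of 22933, 12250 of 23499 and 11653 of 23165 are negative, in the same order. The share of all genes that are negative in all 3 lines is not given here. The log2 fold change is positive in all 3 lines for PSME4 and PSMD2, the latter chosen after its values were seen. PSMD2 has only 0.003 in AMO1 (edgeR adjusted p 0.989), so its sign there carries no weight.

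The lines were compared at the gN1E label first and at the SCR label second, with CPM scaled by TMM over the 18 libraries. Between AMO1 and LP1 edgeR called 31 of the 41 members, beside 66.3% of all genes. Of these members 9 are higher in AMO1, beside 32.6% of all genes, and 22 are lower, beside 33.8%. With library size only the split is 14 higher, beside 37.2% of all genes, and 15 lower, beside 29.6%, and the median of all genes is 0.14 in place of 0.00. At the SCR label 33 members were called, beside 70.4% of all genes, and 28 members were called with the same sign at both labels, beside 60.8% of all genes. Between AMO1 and H929 edgeR called 21 members (33.6% of all genes), 3 higher in AMO1 (15.1% of all genes) and 18 lower (18.5% of all genes). At the SCR label there were 20, beside 32.5% of all genes, and all 20 were called with the same sign at gN1E, beside 25% of all genes. Between H929 and LP1 edgeR called 28 members (65.5% of all genes), 14 higher in H929 (33.6% of all genes) and 14 lower (31.9% of all genes). Library size only gives 18 higher, beside 38.2% of all genes, and 9 lower, beside 27.4%, with the median of all genes at 0.18 in place of 0.04. At the SCR label 31 members were called, beside 67.4% of all genes, 25 of them with the same sign at gN1E, beside 58.8%. A bulk value does not tell a different share of cells from a different amount of RNA per cell.

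**Figure D4:**
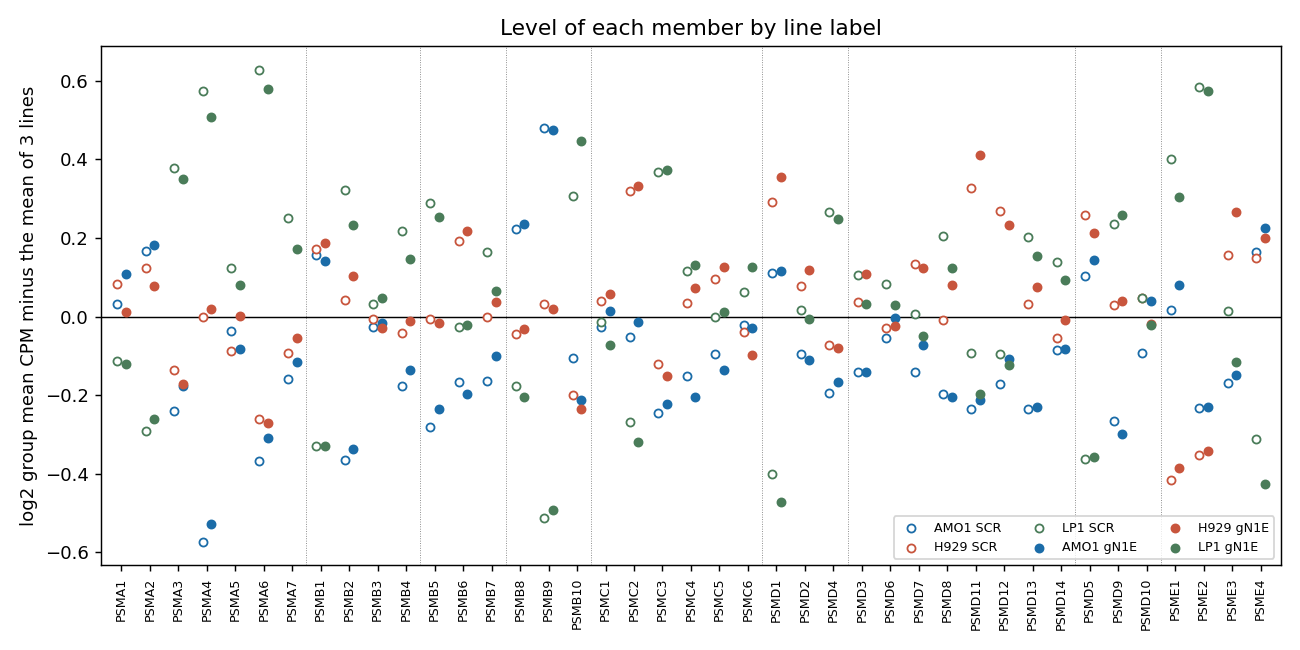
Log2 of the group mean CPM (TMM over the 18 libraries) of each member minus its mean over the 3 lines, open for the label SCR and filled for gN1E. PSMA4 and PSMA6 lie highest in LP1 and PSMB9 in AMO1, with AMO1 minus LP1 at -1.03, -0.89 and 0.97 for the label gN1E.

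In the alpha ring 7 members were called between AMO1 and LP1, beside 66.3% of all genes, and 5 of them are lower in AMO1, beside 33.8%. PSMA4 reads 74.5, 71.7 and 75.9 CPM in AMO1 gN1E, 112, 111 and 101 CPM in H929 gN1E, and 156, 158 and 141 CPM in LP1 gN1E. The lines follow each other as steps without overlap. The edgeR log2 fold change of PSMA4 is -1.03 for AMO1 minus LP1 (adjusted p 1.64e-17) and -0.55 for AMO1 minus H929 (adjusted p 1.31e-09). PSMA6 reads 13.3, 13.3 and 16.6 CPM in AMO1, 15.9, 14.8 and 13.8 CPM in H929 and 25.3, 27.7 and 27.2 CPM in LP1. LP1 stands apart from the others in PSMA6, with -0.89 for AMO1 minus LP1 (edgeR adjusted p 2.05e-11) and -0.85 for H929 minus LP1 (edgeR adjusted p 3.51e-11). PSMB2 of the beta ring reads 124, 113 and 115 CPM in AMO1 and 153.5, 169 and 156 CPM in H929, and is lower in AMO1, with a log2 fold change of -0.44 (edgeR adjusted p 9.73e-08).

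The constitutive catalytic genes PSMB5, PSMB6 and PSMB7 were all called lower in AMO1 than in H929 and in LP1 at the gN1E label, beside 18.5% and 33.8% of all genes. PSMB5, the target of proteasome inhibitors, reads 51.5, 53.0 and 51.1 CPM in AMO1, 58.2, 63.4 and 59.4 CPM in H929 and 73.7, 75.7 and 69.0 CPM in LP1, and the lines do not overlap. PSMB5 has a log2 fold change of -0.49 for AMO1 minus LP1 (edgeR adjusted p 1.36e-09). PSMB6, with -0.17 for AMO1 minus LP1 (edgeR adjusted p 0.0401), does not pass at the SCR label (edgeR adjusted p 0.0812).

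PSMB8 and PSMB9 were called higher in AMO1 than in H929 and in LP1. PSMB9 reads 56.8, 51.9 and 51.4 CPM in AMO1 gN1E, 39.7, 40.1 and 37.0 CPM in H929 and 26.8, 28.0 and 27.1 CPM in LP1. Again the lines form steps, here from AMO1 down to LP1, and the edgeR log2 fold change of PSMB9 is 0.97 for AMO1 minus LP1 (adjusted p 4.51e-15) and 0.46 for AMO1 minus H929 (adjusted p 4.92e-07). PSMB8 reads 79.9, 73.9 and 70.9 CPM in AMO1, 67.0, 61.6 and 58.3 CPM in H929 and 56.3, 57.7 and 51.6 CPM in LP1. AMO1 lies above the others in PSMB8, with 0.44 against LP1 (edgeR adjusted p 1.01e-07) and 0.27 against H929 (edgeR adjusted p 0.000612). PSMB10 breaks with its partners at 16.7, 16.1 and 14.7 CPM in AMO1, 16.7, 15.2 and 14.8 CPM in H929 and 24.96, 25.4 and 24.5 CPM in LP1. PSMB10 is thus lower in AMO1 than in LP1 (-0.66, edgeR adjusted p 2.95e-09) and lower in H929 than in LP1 (-0.68, edgeR adjusted p 7.58e-10). At the SCR label these PSMB10 differences are smaller, at -0.41 and -0.50.

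As a share of each catalytic pair per length, PSMB8 makes up 39.1% of PSMB8 plus PSMB5 in AMO1 gN1E, 31.5% in H929 gN1E and 25.2% in LP1 gN1E, and 41.2%, 32.5% and 26.4% at the SCR label. PSMB9 makes up 22.2%, 13.5% and 11.5% of PSMB9 plus PSMB6 at gN1E, and 21.1%, 13.3% and 10.8% at SCR. For PSMB10 in PSMB10 plus PSMB7 the order differs, with 16.4%, 14.9% and 21.6% at gN1E and 19.04%, 16.5% and 19.9% at SCR. The single libraries of AMO1 give 17.1, 17.4 and 14.7% at gN1E against 20.7, 18.3 and 18.1% at SCR for PSMB10. Without division by length the PSMB8 shares at gN1E are 59.05%, 50.8% and 43.1%, in the same order of lines. PSMB10 shares 39.4% of its exon bases with another gene, and with unshared length its shares at gN1E are 24.4%, 22.4% and 31.2%. These are shares of RNA, and the protein of PSMB8, PSMB9 and PSMB10 was not measured.

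**Figure D5:**
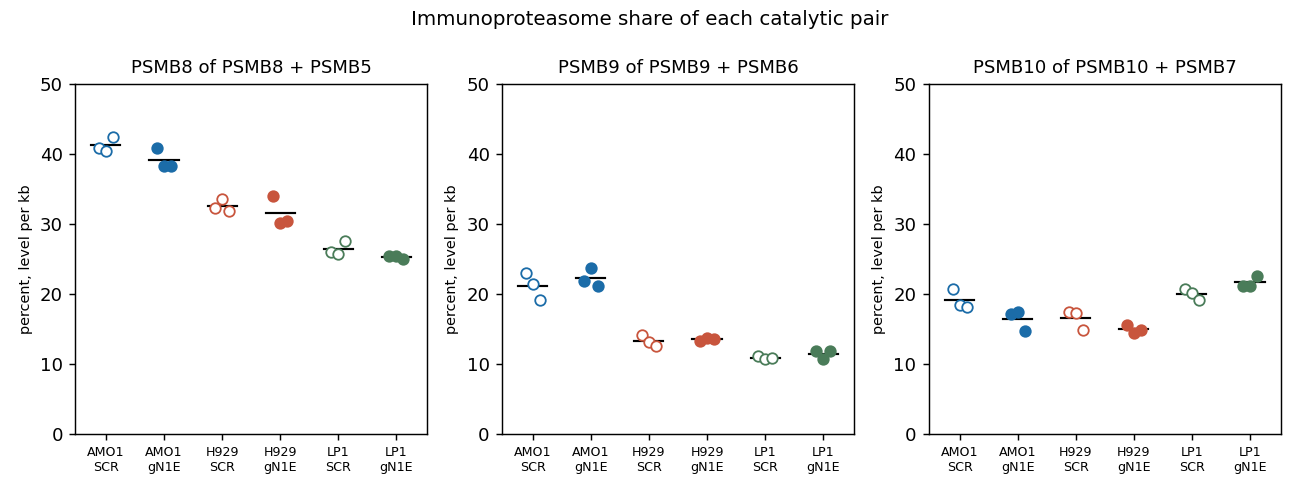
Percent of the immunoproteasome gene in each catalytic pair (CPM per kilobase of exon) in each of the 18 libraries, open for SCR and filled for gN1E, with a bar at the mean. The share of PSMB8 is highest in AMO1 (39.1% at gN1E) and that of PSMB10 in LP1 (21.6% at gN1E).

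In the cap, PSMD1 reads 234, 221 and 244 CPM in AMO1 gN1E, 275.5, 287 and 265 CPM in H929 and 162, 164 and 140.5 CPM in LP1. LP1 lies well below the others, and PSMD1 is higher in AMO1 (0.59, edgeR adjusted p 3.82e-11) and in H929 (0.83, edgeR adjusted p 6.94e-15) than in LP1. PSMD11 of the lid reads 167, 151 and 157 CPM in AMO1, 242, 249.6 and 241 CPM in H929 and 163, 162 and 155 CPM in LP1. H929 is the outlier in PSMD11, with -0.62 for AMO1 minus H929 (edgeR adjusted p 2.97e-12) and 0.61 for H929 minus LP1 (edgeR adjusted p 7.31e-13). The ATPase PSMC2 reads 126, 129 and 115 CPM in H929 and 78.3, 83.1 and 74.3 CPM in LP1, a log2 fold change of 0.65 (edgeR adjusted p 1.22e-11). PSMD5, a chaperone of the base, reads 41.7, 44.2 and 48.2 CPM in AMO1 against 34.3, 32.3 and 28.2 CPM in LP1, without overlap (0.50, edgeR adjusted p 3.53e-08).

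Of the activators, PSME2 reads 104, 100.4 and 102 CPM in AMO1 gN1E, 101, 93.0 and 88.8 CPM in H929 and 181, 188 and 165 CPM in LP1. The LP1 values of PSME2 are far above the rest, with a log2 fold change of -0.80 for AMO1 minus LP1 (edgeR adjusted p 8.67e-15) and -0.92 for H929 minus LP1 (edgeR adjusted p 2.58e-16). PSME1 reads 142, 146 and 140.4 CPM in AMO1, 101, 107 and 102 CPM in H929 and 173.5, 172 and 155 CPM in LP1. H929 is the lowest in PSME1, with a log2 fold change of 0.46 for AMO1 minus H929 (edgeR adjusted p 2.17e-09) and -0.69 for H929 minus LP1 (edgeR adjusted p 2.14e-14). PSME4 goes against both, at 200.1, 206 and 216 CPM in AMO1, 200.1, 207 and 204 CPM in H929 and 135.5, 128 and 132 CPM in LP1. PSME4 is lower in LP1, with a log2 fold change of 0.65 for AMO1 minus LP1 (edgeR adjusted p 2.32e-14) and 0.63 for H929 minus LP1 (edgeR adjusted p 6.13e-14). PSME3 reads 220.0, 202 and 214 CPM in AMO1 against 284, 291 and 272 CPM in H929, a log2 fold change of -0.41 (edgeR adjusted p 4.16e-08). The 23 differences between lines with the highest and lowest log2 fold changes kept call and sign in all 276 checks. A check is a difference under another setting, at the SCR label or with a library left out. Those of PSMB5, PSMB6 and PSMB7, and of PSMB8 between AMO1 and LP1, were not followed gene by gene through the other settings or the libraries left out. The lines may also differ in sequencing run, and the H929 label is in doubt as described, so no line difference of PSMA4, PSMB9 or PSME2 can be assigned to the line itself.

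The 41 genes lie on 15 chromosomes, with 7 on chromosome 14 and 7 on chromosome 17. PSME1 and PSME2 are 4394 bases apart on chromosome 14 on opposite strands, and PSMB8 and PSMB9 overlap by 544 bases on chromosome 6. Members of such pairs can differ, as PSME1 does between AMO1 and H929 (0.46) while PSME2 reads nearly the same. Pseudogenes with a member's name number 42 and belong to 16 members, and reads that map to several places were not counted.

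Promoters were searched for 4 sets of letters on both strands, from 250 bases before to 50 bases after the start, in 36 members. PSMA7, PSMB1, PSMB6, PSMB7 and PSMD4 were not matched to the promoter table. A match is a description, not a site or a cause. TGACNNNGC, the core of the antioxidant response element, occurs in 13 of the 36 members (36.1%) and in 16.1% of 27305 genes with a promoter in the table, with PSMA4, PSMB9, PSMC4, PSME1, PSME2 and PSME4 among the members. CCGGAAG, read by ETS factors, occurs in 12 members (33.3%, against 12.2% of all), PSMA6 and PSME4 among them. CCAAT occurs in 18 members (50%, against 39.7% of all). GAAANNGAA, a part of the interferon response element, occurs in 7 members (19.4%, against 9.86% of all), which are PSMA4, PSMB4, PSMB8, PSMB10, PSMC2, PSME1 and PSME2. The pieces below come from RefSeq on build GRCh38.p14, their windows were chosen after the matches were seen, and capitals mark the match. All 30 bases of the PSME2 piece, and 14 of the 100 bases of the PSMB10 piece, lie in annotated exons. For PSME1 the piece is chr14:24136064-24136162 on the plus strand, for PSME2 chr14:24146616-24146645 on the minus strand, for PSMB10 chr16:67936851-67936950 on the minus strand and for PSME4 chr2:53970994-53971093 on the minus strand, where TGACNNNGC is read on the reverse strand.

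PSME1: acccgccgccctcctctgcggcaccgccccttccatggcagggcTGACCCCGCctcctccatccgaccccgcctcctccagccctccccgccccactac
PSME2: ggggagtGAAAGCGAAagcccgggcgacta
PSMB10: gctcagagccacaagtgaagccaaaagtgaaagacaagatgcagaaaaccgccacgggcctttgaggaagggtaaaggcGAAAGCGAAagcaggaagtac
PSME4: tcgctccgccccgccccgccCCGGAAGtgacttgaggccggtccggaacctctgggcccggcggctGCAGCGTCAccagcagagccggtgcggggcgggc

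Genes that act on the proteasome were looked at beside its subunits. NFE2L1, the factor that raises subunit genes when the proteasome is blocked, was not called between the labels (0.09, 0.08 and -0.04 in AMO1, H929 and LP1, with edgeR adjusted p 0.506, 0.379 and 0.75). Its mean CPM at gN1E is 489.7 in AMO1, 471 in H929 and 126 in LP1. Of the factors bound to the proteasome, the ligase UBE3C rose by 0.22 in AMO1 (edgeR adjusted p 0.0253) and by 0.28 in H929 (edgeR adjusted p 0.000189), and the adaptor ECPAS by 0.24 (edgeR adjusted p 0.0154) and 0.20 (edgeR adjusted p 0.0083). In AMO1 the calls of UBE3C and ECPAS are lost without SCR D, gN1E C or gN1E D, and that of UBE3C also without SCR A, with edgeR adjusted p up to 0.152 and 0.126. In H929 that of ECPAS is lost without SCR A or gN1E B (edgeR adjusted p up to 0.0945). The core chaperone PSMG2 rose in H929 by 0.20 (edgeR adjusted p 0.0255, up to 0.175 without SCR A or gN1E B), and the ubiquitin receptor ADRM1 fell in LP1 (-0.22, edgeR adjusted p 0.0325, up to 0.24 without SCR A, SCR B, gN1E A or gN1E D).

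The interferon partners of PSMB8, PSMB9 and PSMB10 include IRF1, which fell in H929 (-0.31, edgeR adjusted p 0.00335), also in every refit with a library left out. STAT2 fell in H929 (-0.21, edgeR adjusted p 0.0107, up to 0.122 without SCR A, gN1E A or gN1E B). The regulator NFE2L2 rose in H929 by 0.19 (edgeR adjusted p 0.0137, up to 0.126 without SCR A, SCR B or gN1E B). NLRC5 passed in H929 (-0.16, edgeR adjusted p 0.0493) and in LP1 (0.25, edgeR adjusted p 0.0418), and leaving out any of the 6 libraries, or using limma-voom, the replicate block or the joint fit, loses either call, with edgeR adjusted p between 0.0518 and 0.202 in H929 and between 0.0585 and 0.189 in LP1. ERAP1, which trims peptides, rose in AMO1 by 0.24 (edgeR adjusted p 0.0216, up to 0.175 without SCR D, gN1E C or gN1E D) and in H929 by 0.18 (edgeR adjusted p 0.0225, up to 0.133 without SCR A, SCR C or gN1E B). Of the 13 interferon partners, 8 were called higher and 4 lower in AMO1 than in LP1 by edgeR at the gN1E label, beside 32.6% and 33.8% of all genes. HLA-B and TAP1 have 2.78 and 1.47 there, with the sign of PSMB8 and PSMB9, while IRF1 has -0.75, with the sign of PSMB10 and PSME2. The core chaperone POMP has 0.96 for AMO1 minus LP1. With library size only the AMO1 calls of UBE3C, ECPAS and ERAP1, the H929 calls of ECPAS, ERAP1, NFE2L2 and PSMG2 and the LP1 call of ADRM1 are lost. The H929 call of PSMG2 is also lost with the replicate block, and the LP1 call of ADRM1 in the joint fit (edgeR adjusted p 0.351). With the replicate block in AMO1 edgeR also called PSMG2 (0.22, adjusted p 0.00523) and ADRM1 (-0.26, adjusted p 0.000947). Without the block their edgeR adjusted p is 0.0653 and 0.491. The block also called NFE2L2 (0.18), IRF9 (-0.33) and NLRC5 (-0.23), with edgeR adjusted p 0.143, 0.113 and 0.0578 without it. Whether IRF1 or NFE2L2 act on any subunit gene was not tested.

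The limits are those of small groups with doubtful labels. With 3 libraries per label the lowest p of an exact permutation test is 0.1, so all calls of PSMA3, PSMB10, PSMC4 or PSME4 lean on the variance model of edgeR, DESeq2 or limma-voom. The interval of each member limits only the change of that member, and most are narrower than the ends given for each line. Names inside the tables exchange the gapmers and 2 of the lines, and NEAT1 is high under the label of the gapmer against it. FGFR3 and NSD2 go against the H929 label and equally against LP1, the name those libraries carry inside the tables. Only RNA was measured, so assembly and activity of the proteasome are unknown here.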

How the data were processed

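The authors deposited raw counts per gene (stranded counting of read pairs, no multi-mapping or multi-overlapping reads, GENCODE v43, hg38). Their notes name FastQC, STAR 2.7.10a, featureCounts 1.6.4 and limma. The deposited counts were fitted with edgeR 4.0.16 in R 4.3.3 (TMM, robust quasi-likelihood, genes kept at 10 reads or more in any of the 6 libraries, Benjamini-Hochberg over all genes, threshold 0.05), by line, and jointly for lines and interactions. Alternatives were limma-voom (limma 3.58.1), DESeq2 1.42.0, RLE factors, library size only, other filters, a replicate block, the joint fit and each library left out. The code was tried on simulated data. Deviations of libraries with the same letter correlate in AMO1 (0.235, 0.205 and 0.136 over 14733 genes, threshold 0.1). In LP1 they give 0.199 (A), -0.00523 (B) and -0.0695 (D), and in H929 -0.0219 (A), -0.0613 (B) and -0.128 (C). All 3 letters pass only in AMO1, so the member calls of the block are given there. In H929 and LP1 the block is only an alternative setting. The smallest exact permutation p is 0.1.

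Members and lists were chosen with earlier results of these data known. Named are NEAT1, the catalytic subunits, PSME1, PSME2, the 3 highest and 3 lowest members per line, the 4 highest and 4 lowest called between lines, the 3 highest and lowest by level, NFE2L1 and up to 4 called genes per pathway list. No library was left out. Protein sequences were not used here, and some genes of the pathway and marker lists are not reported here.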

Additional observations from a re-analysis of the deposited data

Results flagged for a closer look

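The interaction test of edgeR found the response to the label (gN1E minus SCR) of a pathway gene to differ between lines in the cases reported here. For AMO1 minus LP1 these are NLRC5 (-0.45, adjusted p 0.00195) and ERAP1 (0.33, adjusted p 0.0103, and 0.0601 without AMO1 SCR D). For H929 minus LP1 they are NFE2L2 (0.31, adjusted p 0.023), IRF1 (-0.43, adjusted p 0.0077), NLRC5 (-0.37, adjusted p 0.012) and ERAP1 (0.28, adjusted p 0.0378). The edgeR calls for H929 minus LP1 are lost in 6 of the 12 refits with a library left out for NFE2L2 (adjusted p up to 0.107) and in 9 for ERAP1 (up to 0.145). NFE2L2 is lost without LP1 SCR D, LP1 gN1E D, H929 SCR A, H929 SCR B, H929 gN1E B or H929 gN1E C. ERAP1 keeps its call only without LP1 SCR D, H929 SCR B or H929 gN1E A. With library size only both ERAP1 calls and the NFE2L2 call are lost, and with RLE factors that of ERAP1 for H929 minus LP1. No proteasome subunit was called in an interaction.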

How the results depend on the processing

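Members called, AMO1: 0 in the chosen fit, 1 with library size only (PSMC4), 1 without a filter beyond 1 read (PSMC4), 1 in the joint fit (PSME4) and 0 to 1 with a library left out (PSMC4 without gN1E A). With the replicate block 3 were called (PSMB10, PSMC4 and PSME4).

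Members called, H929: 0 in the chosen fit, 5 with library size only (PSMA3, PSMC3, PSMC6, PSMD4 and PSMD10), 1 without a filter beyond 1 read (PSME4), 2 with the CPM filter (PSMA3 and PSME4), 2 with DESeq2 (PSMA3 and PSME4), 1 in the joint fit (PSME4) and 0 to 1 with a library left out (PSME4 without SCR C). In LP1 0 were called in all settings.

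Members called between lines ran from 29 to 33 (AMO1 and LP1), 20 to 21 (AMO1 and H929) and 27 to 31 (H929 and LP1) with other settings or at the SCR label. With a library left out they ran from 27 to 32, 20 to 22 and 25 to 28.

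These log2 fold changes have the other sign in a setting, and none was called in either. With library size only PSMB7 in AMO1 is -0.0188 (0.02 in the chosen fit), PSMB5 in LP1 0.00738 (-0.02) and PSME2 in LP1 0.0256 (-0.00). With the CPM filter PSME2 in LP1 is 0.00132. In the joint fit PSMB10 in LP1 is -0.00113 (0.02).

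With a library left out the log2 fold change runs from -0.0226 to 0.0571 for PSMB7, -0.0582 to 0.0505 for PSMB9, -0.0467 to 0.038 for PSME2 and -0.0481 to 0.12 for PSMA6 in AMO1. In H929 it runs from -0.0449 to 0.0176 for PSMB7 and -0.0691 to 0.0304 for PSME2. In LP1 it runs from -0.0549 to 0.0125 for PSMB5, -0.0106 to 0.0582 for PSMB10, -0.0614 to 0.0121 for PSME1 and -0.0409 to 0.0469 for PSME2. The cause was not tested.

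The alternatives for pathway genes and for unshared exon length were chosen after the data were seen. The fit without a filter was not run jointly, as it was not planned there.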
